A study of Mus musculus with 12 samples.

Results

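The genes described here are the mouse MHC class II chains with their loading and control machinery: H2-Aa, H2-Ab1, H2-Eb1, Cd74, H2-DMa, H2-DMb1, H2-DMb2, H2-Oa, H2-Ob and Ciita. They are 10 of the 78298 gene rows of the count table, were taken by symbol, and all 10 were among the 22190 genes with enough counts to test. The family was selected on measured values, because H2-Ab1 was lower in HDM than in VEH tumours in an earlier analysis of these libraries. That comparison, and the interaction that contains it, are therefore given as description only and support nothing.

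MHC class II molecules are pairs of an alpha and a beta chain that carry peptides from engulfed material to the cell surface, where CD4 T cells read them. In lung they are known from dendritic cells, B cells and macrophages, and also from alveolar type 2 cells. The invariant chain Cd74 blocks the peptide groove until the complex reaches the endosome, H2-DM then exchanges the last Cd74 fragment for a peptide, and H2-DO restrains H2-DM. Ciita is the transactivator that switches the whole set on, acting through the RFX and NF-Y factors that sit on the X and Y boxes of these promoters.

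RNA was sequenced from 12 mouse lung libraries in 4 groups of 3: normal lung under VEH, normal lung under HDM, LLC tumours under VEH and LLC tumours under HDM. HDM is house dust mite, given chronically according to the design text. VEH and LLC are written as in the labels, which do not expand them and give no dose, duration, strain, age or sex. Tumours and adjacent lung were cut out by hand under a microscope and frozen, every RNA passed the same integrity minimum, and the labels give 1 batch for all libraries. No label says that the libraries of a group come from separate animals, so p-values measure the spread between these libraries, which may be technical.

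Total counts ran from 20608682 to 32765364 per library, and the 10 genes took between 0.0229% and 0.456% of them. Library names carry a prefix that joins 1 normal and 1 tumour library, and for 2 of the 6 prefixes the treatment labels disagree: 1 prefix is shared by normal VEH replicate 2 and tumour HDM replicate 2, the other by normal HDM replicate 3 and tumour VEH replicate 3. Results were computed with and without those 4 libraries. Tumour HDM replicate 3 stood apart from the other HDM tumours, with the lowest level of each of the 10 genes among all 12 libraries and a summed level of alveolar type 2 markers of 128 CPM (counts scaled to a common library total), against at least 2710 in the other HDM tumours. The normal libraries also differed: Chil3, an alveolar macrophage chitinase-like protein, was between 5270 and 7700 CPM in normal VEH replicate 2 and normal HDM replicates 1 and 2, and between 75.3 and 203 CPM in the other 3.

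Of the 10 genes, 8 lie in the class II region of chromosome 17 and Ciita lies on chromosome 16. On GRCm39, with GENCODE M39 annotation, the region genes run from H2-Oa at chr17:34311314-34314328 to H2-Eb1 at chr17:34504236-34535648, and Ciita spans chr16:10297923-10347694. The RefSeq promoter table (GRCm38.p6, 250 bases before to 50 after the start) holds 7 of the genes. For 6 of them, an AAC and an ATTGG lay on the coding strand with their first letters 28 to 31 bases apart, at most 121 bases before the start. These stretches are shown because they carry the letters of the 2 boxes through which Ciita acts. Capitals mark ATTGG, the core of the Y box, and AACNGATG, an X box core, or its AAC alone where the rest differs.
H2-Aa: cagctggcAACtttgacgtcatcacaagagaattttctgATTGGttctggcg
H2-Eb1: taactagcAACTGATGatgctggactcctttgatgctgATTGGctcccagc
H2-DMb1: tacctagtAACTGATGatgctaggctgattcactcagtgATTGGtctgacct
H2-DMb2: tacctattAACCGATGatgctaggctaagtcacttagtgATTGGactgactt
H2-Oa: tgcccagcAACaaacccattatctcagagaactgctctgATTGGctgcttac
H2-Ob: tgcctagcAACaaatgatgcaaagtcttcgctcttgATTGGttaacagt
They lie at chr17:34287859-34287910 (minus strand), chr17:34305770-34305820, chr17:34153091-34153142, chr17:34145120-34145171, chr17:34092297-34092348 and chr17:34238812-34238860 (plus strand for the last 5) of GRCm38.p6, in the order shown.

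The full AACNGATG, searched on both strands, stood in H2-Eb1, H2-DMb1 and H2-DMb2 and in 2.32% of all 32851 promoters of the table. ATTGG, also on both strands, is common and stood in 37.4% of them. AACNGATG followed after 15 to 30 bases by ATTGG on the same strand was found in 6 promoters of the table: these 3, the neighbouring class II gene H2-Eb2, BC051142 and Gm35697. The looser pair of AAC and ATTGG, with first letters 28 to 31 bases apart on the same strand, was chosen after the sequences were seen. Searched on both strands, it stood in 2.49% of all promoters. Both promoter entries of H2-DMa lack the pair. A match describes letters and shows no binding.

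In HDM tumours all 10 genes were lower than in HDM normal lung, by a median of -2.27 on the log2 scale, where the median of all tested genes was -0.08. In VEH tumours 2 of the 10, H2-Eb1 and Ciita, were called higher than in VEH normal lung and none was called lower. Of all tested genes 18.2% were called higher there, so a count of 2 in 10 is near the general share. The median of the 10 was 0.70, against -0.11 for all tested genes. Both comparisons share tumour libraries with the comparison on which the family was selected, so they are not independent of that choice. In bulk tissue, fewer cells of a type and less RNA per cell cannot be told apart.

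Calls rest on an adjusted p below 0.05 in edgeR's quasi-likelihood test with Benjamini-Hochberg adjustment over all tested genes. Tumour and normal lung differ widely, so calls are common: under HDM 51.9% of all tested genes were called in either direction and 28.9% were called lower in tumour. Under VEH 38.9% were called in either direction and 18.2% were called higher. By library, the HDM groups did not overlap for any of the 10 genes, as for 63.1% of all genes. The VEH groups did not overlap for 6 of them, 5 higher and 1 lower, as for 52.4% of all genes. Leaving out tumour HDM replicate 3 kept 10 calls under HDM, with a median of -1.71. Leaving out the 4 libraries with conflicting prefixes kept 8, without H2-Eb1 and Ciita. Under VEH the 2 calls were not stable: leaving out any 1 library of the comparison gave 0 or 1 call, and leaving out the 4 libraries gave 0.

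**Figure D1:**
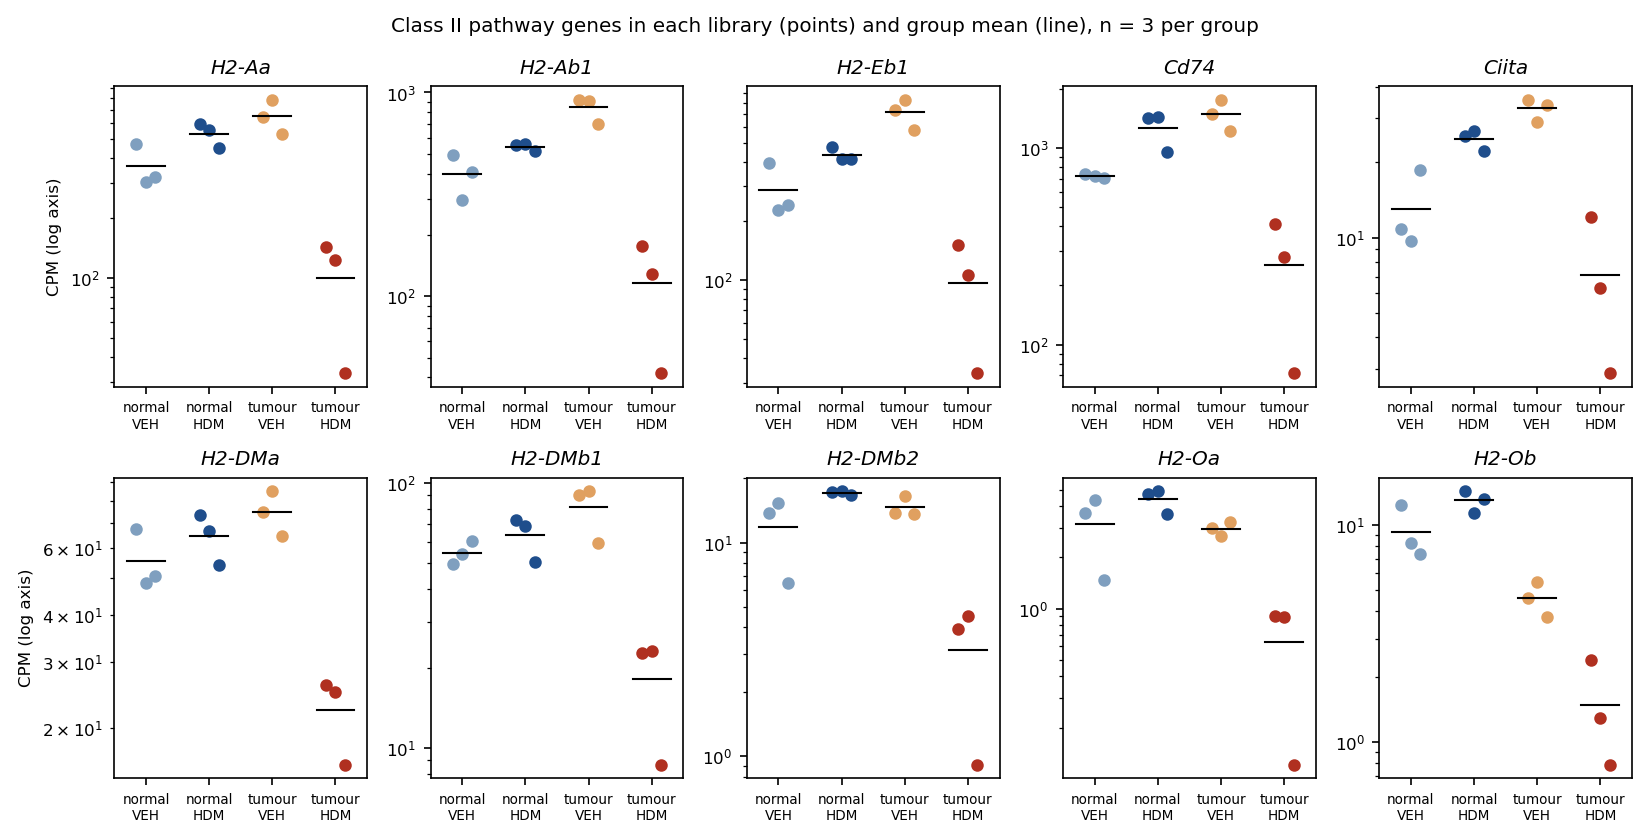
CPM of each of the 10 genes (vertical log axis, scaled separately per gene) in the 3 libraries of each group (points) with the group mean (line). The HDM tumours lie below both normal groups for every gene except Ciita, where tumour HDM replicate 1 (12.1) lies within the VEH normal range of 9.69 to 18.7, and H2-Ob is the gene whose VEH tumours all lie below normal lung.

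H2-Aa, the alpha chain of I-A, read 469, 304 and 322 CPM in VEH normal lung, 590, 552 and 448 in HDM normal lung, 643, 785 and 530 in VEH tumours and 143, 123 and 33.1 in HDM tumours (replicates 1, 2 and 3). Every HDM tumour lay below every other library, and the VEH tumours lay above VEH normal lung. H2-Aa was lower in tumour under HDM by a log2 change of -2.41 ± 0.44 (SE; edgeR adjusted p = 0.00154), while its change of 0.84 ± 0.43 under VEH was not called (adjusted p = 0.136).

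H2-Ab1, the beta chain that pairs with it, followed the same order. It read 496, 296 and 405 CPM in VEH normal lung, 553, 559 and 514 in HDM normal lung, 922, 913 and 701 in VEH tumours and 177, 128 and 41.9 in HDM tumours. Tumour and normal libraries did not overlap under either treatment. Its tumour-normal change was -2.23 ± 0.42 under HDM (edgeR adjusted p = 0.00167) and 1.08 ± 0.40 under VEH (adjusted p = 0.0548, not called).

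H2-Eb1, the beta chain of I-E, read 394, 228 and 240 CPM in VEH normal lung, 475, 414 and 414 in HDM normal lung, 735, 830 and 579 in VEH tumours and 150, 106 and 33.5 in HDM tumours. The 3 VEH tumours were the 3 highest libraries and the 3 HDM tumours the 3 lowest. Both changes were called, 1.31 ± 0.43 under VEH (edgeR adjusted p = 0.0347) and -2.17 ± 0.44 under HDM (adjusted p = 0.00265). Its partner, the I-E alpha chain gene H2-Ea, had 0 counts in all 12 libraries and was not tested. H2-Eb2, a related beta chain gene, was low throughout, at 1.35 to 3.96 CPM in normal lung, 2.77 to 3.57 in VEH tumours and 0.903, 0.410 and 0 in HDM tumours. It was called lower in tumour under HDM, at -2.96 ± 0.89 (edgeR adjusted p = 0.0168).

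Cd74, on chromosome 18 (60936899 to 60945731, plus strand, GRCm39), had the highest group mean of the 10 in each group, also per kilobase of gene length (893 ± 158 CPM per kilobase in VEH tumours, SD, n = 3, against 368 ± 65.1 for H2-Eb1, the next). It read 740, 725 and 702 CPM in VEH normal lung, 1420, 1450 and 955 in HDM normal lung, 1500, 1770 and 1230 in VEH tumours and 413, 280 and 71.5 in HDM tumours. VEH normal lung was narrow and lay below all HDM normal and VEH tumour libraries. Its tumour-normal change was -2.32 ± 0.49 under HDM (edgeR adjusted p = 0.00301) and 1.06 ± 0.47 under VEH (adjusted p = 0.0947, not called).

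Ciita, the transactivator, was among the least abundant, at 3.45 ± 0.356 CPM per kilobase in VEH tumours and 0.744 ± 0.490 in HDM tumours (SD, n = 3). It read 10.8, 9.69 and 18.7 CPM in VEH normal lung, 25.6, 26.8 and 22.2 in HDM normal lung, 35.6, 29.0 and 34.0 in VEH tumours and 12.1, 6.28 and 2.88 in HDM tumours. The VEH tumours were the 3 highest libraries, and HDM tumours overlapped VEH normal lung but not HDM normal lung. Ciita was called in both comparisons, 1.34 ± 0.43 under VEH (edgeR adjusted p = 0.0303) and -1.81 ± 0.43 under HDM (adjusted p = 0.00564). It overlaps Dexi on the opposite strand by 633 bases, and whether the counting used strand is not stated.

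None of the 3 H2-DM genes was called under VEH. H2-DMa, the alpha chain of the peptide exchanger, read 67.7, 48.5 and 50.8 CPM in VEH normal lung, 73.7, 66.7 and 54.3 in HDM normal lung, 74.8, 85.1 and 64.7 in VEH tumours and 26.0, 25.0 and 16.0 in HDM tumours. The HDM tumours stood below all other libraries and the other 3 groups overlapped. Its change was -1.54 ± 0.22 under HDM (edgeR adjusted p = 0.000368), the smallest of the 10 in size, and 0.43 ± 0.21 under VEH (adjusted p = 0.129). H2-DMa overlaps the more abundant Brd2 on the opposite strand by 510 bases. Other opposite-strand overlaps are H2-Oa with BC051537 (396 bases), H2-DMb1 with Gm64535 (285), H2-Eb1 with Gm20513 (130) and H2-Aa with H2-Eb1 (118). Cd74 overlaps Mir5107 on the same strand by 88 bases.

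The H2-DM beta chain comes from a pair of near-identical genes, so how the counting divided reads between them is uncertain. H2-DMb1 read 49.5, 53.9 and 60.5 CPM in VEH normal lung, 72.5, 68.9 and 50.6 in HDM normal lung, 90.3, 93.3 and 59.4 in VEH tumours and 22.9, 23.2 and 8.67 in HDM tumours. H2-DMb2 read 13.8, 15.3 and 6.48, then 17.2, 17.4 and 16.7, then 13.7, 16.6 and 13.6, and then 3.94, 4.54 and 0.910 CPM in the same order of groups. For both genes the HDM tumours lay below every other library. Under HDM the changes were -1.81 ± 0.34 and -2.45 ± 0.51 (edgeR adjusted p = 0.00153 and 0.00273), and under VEH they were 0.57 ± 0.33 and 0.30 ± 0.48 (adjusted p = 0.181 and 0.631).

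The H2-DO chains, which in textbook accounts belong mainly to B cells, had the lowest group means per kilobase of the 8 region genes in each group. H2-Ob read 12.3, 8.24 and 7.33 CPM in VEH normal lung, 14.3, 11.4 and 13.2 in HDM normal lung, 4.59, 5.47 and 3.78 in VEH tumours and 2.38, 1.30 and 0.789 in HDM tumours. Every tumour library lay below every normal library. Its change under HDM was the largest of the 10 in size, -3.13 ± 0.41 (edgeR adjusted p = 0.000251), and under VEH it was -1.01 ± 0.38 (adjusted p = 0.0545, not called). In 3 of 15 alternatives the VEH value of H2-Ob was called lower: with at least 10 counts in every library, by DESeq2's Wald test and with the replicate block. H2-Oa read 3.66, 4.37 and 1.47 CPM in VEH normal lung, 4.75, 4.91 and 3.61 in HDM normal lung, 2.97, 2.68 and 3.23 in VEH tumours and 0.903, 0.888 and 0.121 in HDM tumours. The HDM tumours were again lowest, with 4 counts behind the last value. H2-Oa changed by -2.80 ± 0.64 under HDM (edgeR adjusted p = 0.00455). Under VEH its value was -0.10 ± 0.59 (adjusted p = 0.902), and the sign turned to 0.03 when libraries were scaled by total counts alone.

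In normal lung, HDM and VEH libraries were not told apart at the threshold for any of the 10 genes, nor for any gene tested. The fitted changes of the 10 were all positive, with a median of 0.51 against -0.01 for all tested genes, and ran from 0.22 ± 0.21 for H2-DMa to 0.93 ± 0.42 for Ciita (edgeR adjusted p = 0.979 and 0.887). By edgeR 0% of genes were called, although 1230 genes, Ciita among the 10, had an unadjusted p below 0.05, and DESeq2 called 38 genes. The libraries did not overlap for H2-Ab1, H2-Eb1, H2-DMb2, Cd74 and Ciita, all higher under HDM, and 10.3% of all genes did not overlap in either direction.

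The comparison that selected the family, HDM against VEH tumours, is described without a test of the family. All 10 genes had non-overlapping libraries, lower under HDM, where 22% of all genes did not overlap in either direction. The fitted log2 changes ran from -1.64 ± 0.39 for H2-Ob to -2.89 ± 0.46 for H2-Eb1, with a median of -2.22 (-0.03 for all tested genes), and H2-Ab1 itself was at -2.87 ± 0.43. In edgeR 2 of the 10, H2-Ab1 and H2-DMa, were among the 21 genes called, 0.0946% of those tested. Without tumour HDM replicate 3 the median was -1.80, and 6 of the 10 were among the 24 genes called. Nothing is read from these counts, since the comparison chose the family. Without the 4 libraries of conflicting prefix none was called.

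The interaction, which is the tumour-normal change under HDM minus that under VEH, had a median of -2.95 over the 10 genes (-0.02 over all tested genes), from -1.97 ± 0.30 for H2-DMa to -3.49 ± 0.62 for H2-Eb1. It is also description only. By edgeR 0% of genes were called, with 2084 genes at an unadjusted p below 0.05, all 10 members included, and DESeq2 called 219 genes.

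**Figure D2:**
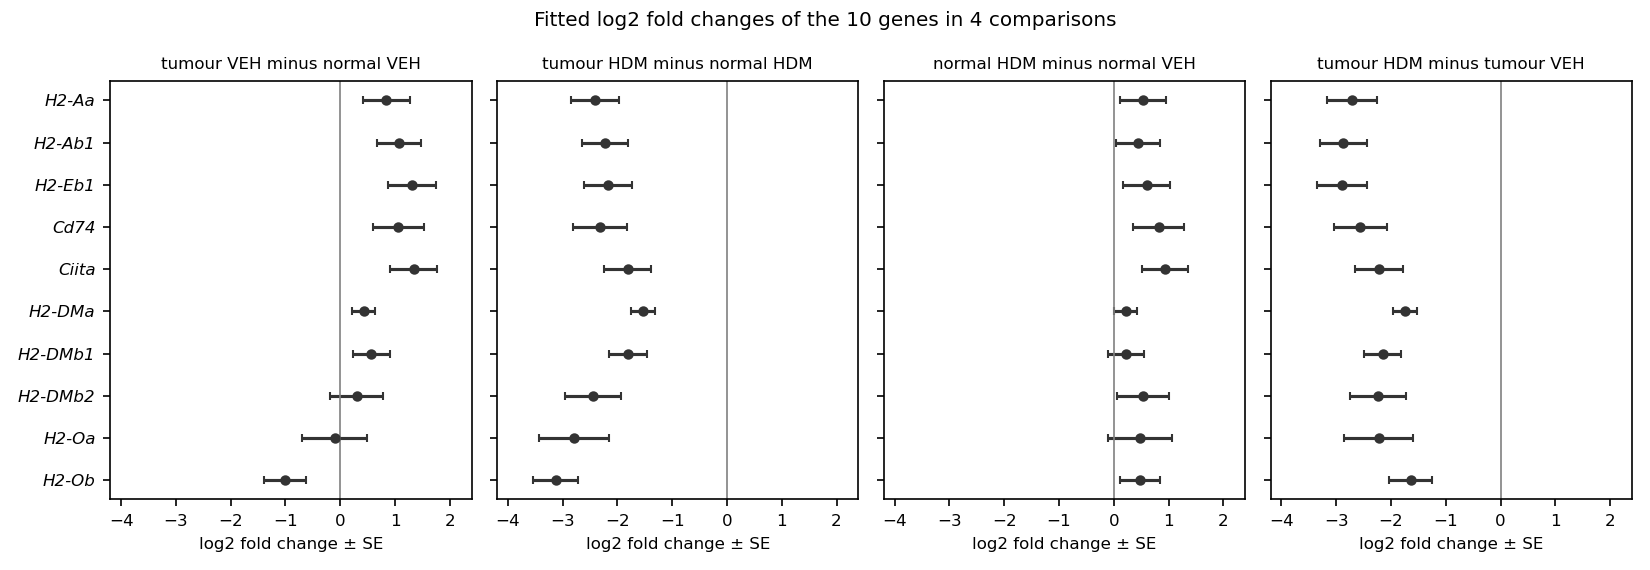
Fitted log2 fold change (point) with its standard error (bar) of the 10 genes in 4 comparisons, with a line at 0. All 10 lie left of 0 in HDM tumours against HDM normal lung (-1.54 to -3.13), and 8 of 10 lie right of 0 in VEH tumours against VEH normal lung.

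Ratios within a library set the genes beside each other without regard to scaling between libraries. Of 18 exact permutation tests of such ratios none passed the threshold after adjustment, so they are given as values. The level per kilobase of H2-Ob relative to H2-DMa, its target complex, had a mean log2 ratio of -3.25 ± 0.17 in VEH normal lung, -2.96 ± 0.26 in HDM normal lung, -4.67 ± 0.07 in VEH tumours and -4.66 ± 0.50 in HDM tumours (SD, n = 3). Every tumour library was below every normal library, and the mean difference was -1.42 under VEH and -1.70 under HDM (exact permutation p = 0.1 each, two-sided, adjusted 0.257 over 18 tests). With 3 libraries against 3 such a test cannot go below 0.1. H2-Oa relative to H2-DMa was lower in tumour under HDM without overlap, by -1.69, and its groups overlapped under VEH. Without tumour HDM replicate 3, where H2-Oa rests on 4 counts, the HDM difference was -0.95.

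H2-DMa relative to the mean of the classical chains was below normal lung in VEH tumours and above it in HDM tumours. It was -3.03 ± 0.13 in VEH normal lung and -3.73 ± 0.07 in VEH tumours, and -3.35 ± 0.12 in HDM normal lung and -2.42 ± 0.74 in HDM tumours, where replicate 3 was highest at -1.60 (SD, n = 3). The HDM difference was 0.93, and 0.52 without that library. Neither pair overlapped (exact permutation p = 0.1 each, adjusted 0.257). The sum of H2-DMb1 and H2-DMb2 relative to the classical mean was lower in VEH tumours than in VEH normal lung, by -0.64 without overlap (same p), and overlapped under HDM. Cd74 relative to the classical mean stayed between 1.63 and 1.96 in the group means, and its groups overlapped in every comparison. Ciita relative to the classical mean lay between -6.63 and -5.75 in the group means, also with overlap throughout.

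**Figure D3:**
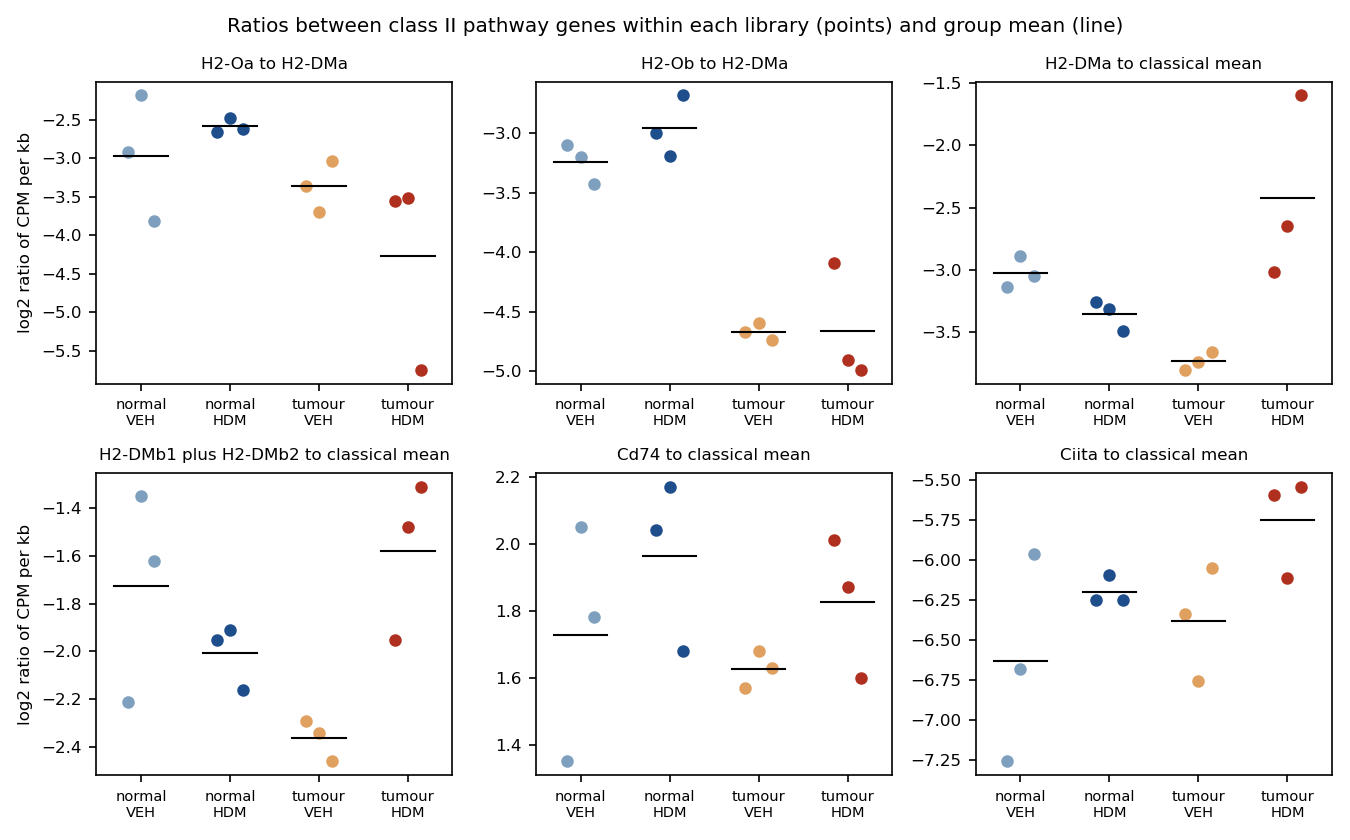
Log2 ratios of CPM per kilobase between genes in the 3 libraries of each group (points) and the group mean (line), where the classical mean is that of H2-Aa, H2-Ab1 and H2-Eb1. H2-Ob relative to H2-DMa lies at or below -4.09 in all 6 tumours and at or above -3.43 in all 6 normal libraries.

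Across libraries the median correlation between pairs of the 10 genes was higher over the tumours than over the normal libraries. The 45 pairs had a median Pearson r of log2 CPM of 0.982 (0.934 to 0.999) over the 6 tumour libraries, which include the HDM-VEH difference and tumour HDM replicate 3, and of 0.64 (0.063 to 0.971) over the 6 normal libraries. Among 10265 protein-coding genes of sufficient level, those closest to the mean of H2-Aa, H2-Ab1, H2-Eb1 and Cd74 over 12 libraries were the immunoproteasome subunit Psmb8 (r = 0.967), the peptide transporter Tap2 (0.965), the immunoproteasome subunit Psmb9 (0.95), the cytokine Ltb (0.943) and the interferon-inducible GTPase Tgtp2 (0.942). Psmb8 averaged 101 CPM in VEH tumours, 23.0 in HDM tumours, 77.8 in VEH normal lung and 82.7 in HDM normal lung. Over the 6 tumours the closest were Psmb9, Psmb8, H2-K1, B2m and Thap1, at 0.991 to 0.996. Those closest to Ciita over 12 libraries were Irf9 (0.945), Tgtp2, Irgm2, Xaf1 and Gbp9, and over the 6 tumours Tmem132a, Gimap4, Ltb, Irf7 and Endod1. These correlations are descriptions over libraries that share tissue and treatment groups. Both the 6 tumour and the 12 libraries hold the comparison that selected the family. No r within other gene sets was computed beside that of the 10, so nothing is read from its size.

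Of all tested genes 38.9% were called under VEH and 51.9% under HDM, so uncalled genes are common among the factors that work with Ciita at the promoters and elsewhere. Of 11 RFX, NF-Y, CREB and coactivator genes, 2 were higher and 1 lower in VEH tumours than in VEH normal lung, and 2 were higher and 1 lower under HDM (median log2 changes 0.14 and 0.08). The higher genes, under both, were Nfya, a subunit of NF-Y (0.80 ± 0.18 under VEH and 0.53 ± 0.18 under HDM), and Carm1, an arginine methyltransferase coactivator (1.00 ± 0.17 and 0.84 ± 0.17). Kat2b, an acetyltransferase, was the lower one under both (-0.79 ± 0.14 and -0.64 ± 0.14). None of Rfx5, Rfxap and Rfxank was called, with values from -0.27 to 0.28. The edgeR adjusted p of the called genes was between 0.00158 and 0.0284. The HDM call of Nfya was lost in 6 of 15 alternatives, among them DESeq2's size factors, its Wald test and leaving out normal HDM replicate 1 or 2.

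Of 9 genes on the path from interferon gamma to Ciita, 3 were higher in VEH tumours than in VEH normal lung, among them the feedback inhibitor Socs1 (1.98 ± 0.47) and Jak1 (0.74 ± 0.17; edgeR adjusted p at most 0.00809). Under HDM Jak1 was higher (0.60 ± 0.17), and Ifngr1 (-0.77 ± 0.21) and Irf2 (-0.79 ± 0.14) were lower (edgeR adjusted p at most 0.0126). The HDM call of Ifngr1 was lost in 3 of 15 alternatives, among them leaving out tumour HDM replicate 1 or 3. That of Jak1 was lost in 2 of 15. Irf1, which binds a Ciita promoter, was not called against normal lung, at 0.67 under VEH and -0.78 under HDM. The HDM value was called in 4 of 15 alternatives. Irf1 read 135, 155 and 153 CPM in VEH tumours and 67.5, 54.3 and 34.5 in HDM tumours. Those groups form the comparison that selected the family, so these levels are description only, and a part of Irf1 in the Ciita level was not tested. Ifng itself had at most 26 counts in any library. The list's median was 0.67 under VEH (changes from -0.33 to 5.11) and -0.38 under HDM (-0.79 to 2.11). Beside the list's counts, 38.9% of all tested genes were called under VEH and 51.9% under HDM. Over 15 alternatives the list's count was 1 to 6 under HDM and 2 to 5 under VEH. It was 1 under HDM without the 4 libraries of conflicting prefix, and 5 under VEH without tumour VEH replicate 2.

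Of 9 lysosomal processing genes, 4 were higher in VEH tumours, Ctsl (2.32 ± 0.51), Ctsb (1.04 ± 0.34), Lgmn (0.93 ± 0.33) and Ifi30 (0.86 ± 0.28). Under HDM the proteases Ctsl (3.52 ± 0.54), Lgmn (1.17 ± 0.33) and Ctsb (1.16 ± 0.34) were higher, and Ctsh (-2.05 ± 0.44) and the inhibitor Cst3 (-1.47 ± 0.24) were lower. The edgeR adjusted p of these genes was at most 0.0456. Calls covered 38.9% of all tested genes under VEH and 51.9% under HDM. The list's median was 0.87 under VEH and -0.28 under HDM. The VEH count fell to 1 when normal VEH replicate 1 or 3 or tumour VEH replicate 1 or 3 was left out, and it was 7 with a block for the name prefix and 6 without the 4 libraries of conflicting prefix or without normal VEH replicate 2. The VEH calls of Lgmn, Ctsb and Ifi30 were lost in 8, 6 and 4 of 15 alternatives.

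Of 9 tested genes of the contact with CD4 T cells, 5 were higher and 1 lower in VEH tumours (median 1.93), and 1 was higher and 3 lower in HDM tumours (median -0.65). For comparison, 38.9% of all tested genes were called under VEH and 51.9% under HDM. Cd4 was at 1.77 ± 0.62 under VEH and -1.98 ± 0.63 under HDM, and the costimulatory receptor Icos at 2.14 ± 0.58 and -2.35 ± 0.61, all called (edgeR adjusted p at most 0.0418). The call of Cd4 was lost in 7 of 15 alternatives under VEH, among them leaving out any 1 VEH tumour, and in 5 of 15 under HDM, among them leaving out tumour HDM replicate 1 or 3. That of Icos was lost in 4 and 2 of 14. The costimulatory ligand Cd80 was higher in tumour under both, at 2.65 ± 0.52 and 1.94 ± 0.51. Without the 4 libraries of conflicting prefix, no gene of the contact list was called under HDM, and without tumour VEH replicate 3 the VEH count was 3. Of 6 genes listed as lineage factors of class II cells, Zbtb46 was lower in tumour under both treatments (-2.46 ± 0.43 under VEH and -3.61 ± 0.45 under HDM). Under HDM Irf4 was lower (-3.04 ± 0.46) and Ebf1 higher (1.49 ± 0.42), with an edgeR adjusted p of at most 0.0124 for these calls. Whether these values follow class II cells was not tested. Under VEH none of 8 dendritic cell markers was called (median 0.09), and all 8 B cell markers were lower under HDM (median -3.44). All 7 endothelial markers were lower under both treatments (medians -2.61 under VEH and -3.88 under HDM). The VEH count of the lineage list rose to 3 without tumour VEH replicate 2 and to 2 without normal VEH replicate 1 or 2. Of 3 tested genes of class II turnover, Cd83 was lower under HDM (-1.05 ± 0.26, edgeR adjusted p = 0.00641) and none was called under VEH.

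**Figure D4:**
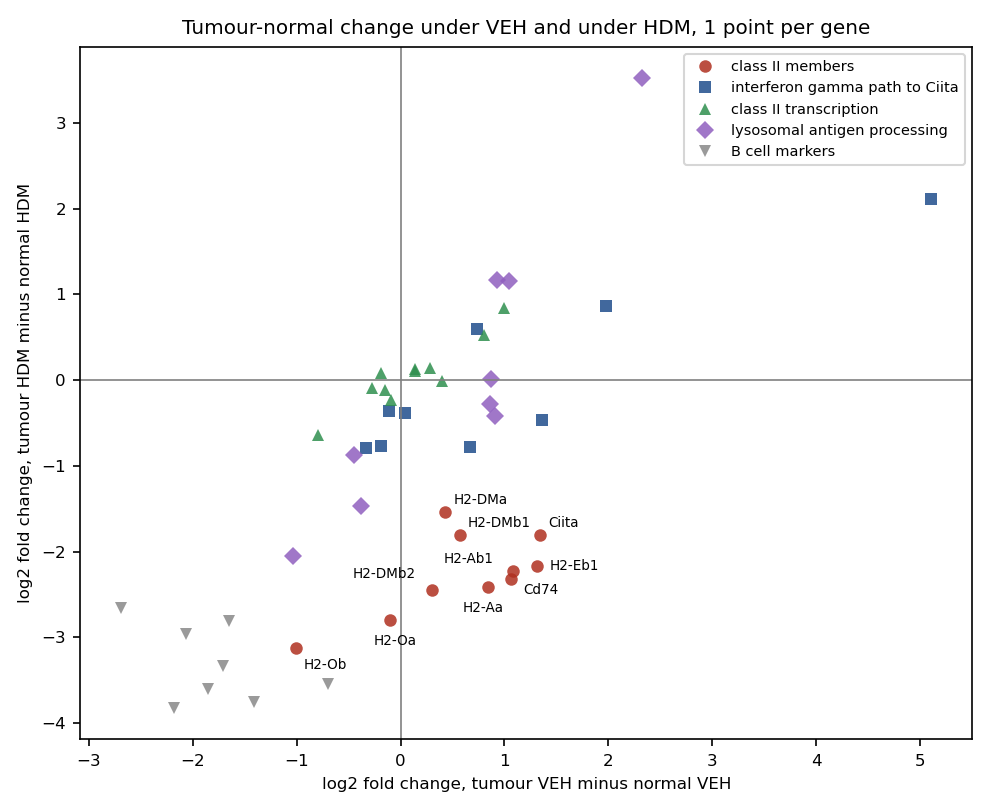
Log2 fold change of tumour against normal lung under VEH (horizontal) and under HDM (vertical), 1 point per gene, for the 10 genes, 3 pathway lists and B cell markers. The 10 genes lie between -1.54 and -3.13 on the vertical axis, and H2-Ob and H2-Oa are the 2 that lie left of 0.

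All 8 B cell markers were called lower in HDM tumours than in HDM normal lung and 6 were called lower under VEH (medians -3.44 and -1.78). Among all tested genes 28.9% were called lower in tumour under HDM, and 38.9% were called in either direction under VEH. The summed level of the B cell markers was 65.8 to 115 CPM in HDM normal lung, 37.3 to 69.3 in VEH normal lung, 11.7 to 21.3 in VEH tumours and 4.15 to 13.1 in HDM tumours. Without the 4 libraries of conflicting prefix 6 were called under HDM and 0 under VEH, and the VEH count was 2 without tumour VEH replicate 1 and 3 without tumour VEH replicate 3.

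Of 8 dendritic cell markers, 4 were lower and 1 higher in HDM tumours than in HDM normal lung and none was called under VEH (medians -1.85 and 0.09). The HDM count was 2 without tumour HDM replicate 2 or 3 or normal HDM replicate 2, and 3 without normal HDM replicate 1. The summed dendritic cell level was 83.5 to 275 CPM in HDM normal lung, 41.6 to 196 in VEH normal lung, 113 to 179 in VEH tumours and 46.8 to 98.7 in HDM tumours. All 8 alveolar type 2 markers were called lower in HDM tumours and 1 in VEH tumours (medians -3.92 and -2.15). The HDM count was 2 without tumour HDM replicate 1 or 2 and 4 without normal HDM replicate 1 or 2. Under VEH the 8 changes ran from -2.9 to -0.58, and the count was 1 to 6 over 15 alternatives. For 6 of the 8 the VEH groups did not overlap (lower in tumour), where 52.4% of all genes did not overlap in either direction. Their summed level was 2500 to 8740 CPM in VEH tumours and 16200 to 36300 in VEH normal lung. Under HDM it was 128 to 2760 CPM in tumours and 24200 to 46000 in normal lung. Of 8 alveolar macrophage markers, 7 were lower in HDM tumours and 6 in VEH tumours (medians -5.05 and -3.08), and the VEH count was 2 or 3 without normal VEH replicate 2 or any 1 VEH tumour. The genes of this list did not vary alike: in HDM normal lung Car4 read 114 to 144 CPM while Chil3 read 75.3 to 7700. Fabp1 averaged 0.962 CPM there. All 7 endothelial markers were lower in HDM and in VEH tumours (medians -3.88 and -2.61). The part of these cells in the class II values was not tested. Beside the counts of these lists, 51.9% of all tested genes were called in either direction under HDM and 38.9% under VEH.

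Of 10 markers of macrophages and monocytes, 5 were higher and 1 was lower in tumour under each treatment (medians 0.93 under HDM and 0.99 under VEH). The share of all tested genes called in either direction was 51.9% under HDM and 38.9% under VEH, for this list and the next. The 10 markers summed to 1050 to 1480 CPM in HDM tumours and 1220 to 1680 in VEH tumours, against 222 to 949 over normal lung. Of 9 T and NK cell markers, 2 were higher in VEH tumours and 1 was lower in HDM tumours (medians 1.55 and -1.27), with counts of 0 to 6 and 0 to 3 over 15 alternatives each. The highest came with only the groups compared (6, VEH) and by DESeq2's Wald test (3, HDM), and both counts reached 0 when single libraries were left out. They summed to 45.3 to 83.9 CPM in VEH tumours and to 1.91, 18.1 and 18.8 in HDM tumours, the lowest in replicate 3. Ptprc, the common leukocyte gene, was not called in either comparison.

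The complement genes C1qa, C1qb and C1qc, made by tissue macrophages, were set beside the classical chains after their values had been seen. They are 3 of the 10 macrophage and monocyte markers, which differed in direction between tumours: 5 had higher mean levels in HDM than in VEH tumours, such as Mrc1 (196 ± 138 against 45.9 ± 13.2 CPM, SD, n = 3) and Itgam (49 ± 18.6 against 31.8 ± 9.5), and 5, C1qa, C1qb and C1qc among them, had lower ones. None of the 10 was called there by edgeR (median log2 change 0.04, 1 with an unadjusted p below 0.05), and another choice of marker would give other ratios. Summed, C1qa, C1qb and C1qc read 515, 592 and 664 CPM in HDM tumours and 1070, 841 and 796 in VEH tumours, against 56.6 to 217 over normal lung. The summed classical chains per summed C1q were 0.911, 0.603 and 0.163 in HDM tumours, 2.15, 3.01 and 2.27 in VEH tumours and 3.81 to 17.1 in normal lung. The HDM tumours had the lowest ratios, and tumour HDM replicate 3 had the highest C1q sum of its group with the lowest class II sum. Between tumours this is the comparison that selected the family, so the ratios are description only. Per Ptprc the summed classical chains were 6.31, 4.93 and 2.64 in HDM tumours and 18.2, 62.9 and 21.5 in VEH tumours. In normal lung they were 6.44 to 31.5 per Ptprc, so there the VEH tumours were not below normal lung.

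**Figure D5:**
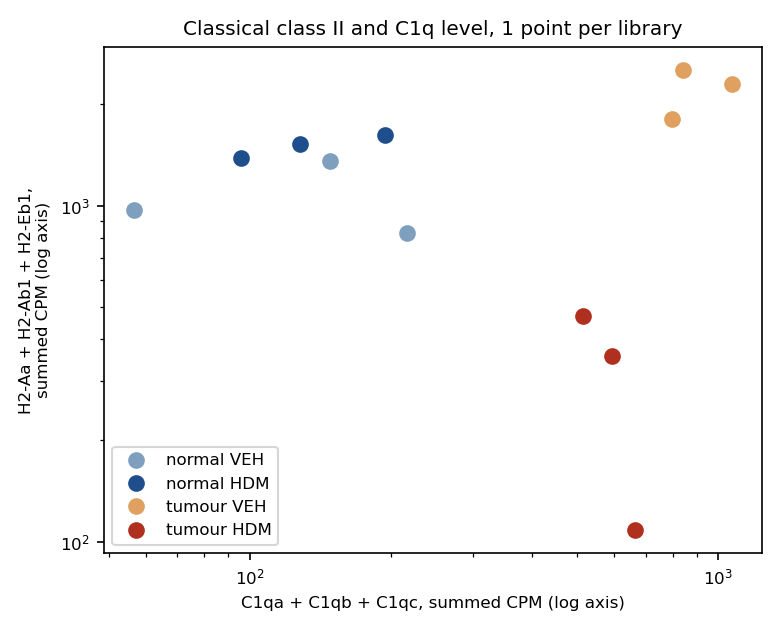
Summed CPM of H2-Aa, H2-Ab1 and H2-Eb1 (vertical log axis) against summed CPM of C1qa, C1qb and C1qc (horizontal log axis), 1 point per library, coloured by group. C1q sums were 515 to 664 CPM in HDM tumours and 796 to 1070 in VEH tumours, and class II sums were 108 to 470 and 1810 to 2530. C1q was chosen after its values had been seen, and 5 of the 10 macrophage and monocyte markers were instead higher on average in HDM tumours. The comparison between tumours selected the family and is description only.

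When each tumour was set against the normal library of the same name prefix, whatever its treatment label, the HDM tumours were lower for all 10 genes in each pair. The median log2 differences were -1.74, -1.26 and -3.94 for replicates 1, 2 and 3. In the VEH tumours 7, 9 and 7 of the 10 genes were higher in tumour, with medians of 0.66, 1.00 and 0.24. Of these 6 pairs, tumour HDM replicate 2 and tumour VEH replicate 3 are those in which the treatment labels disagree.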

How the data were processed

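Raw counts per Ensembl gene were deposited by the authors as 1 table, with gene lengths, per the file headers. The submitters' processing notes name Trim Galore, STAR, Subread and featureCounts with the mm39 build. Whether counting used strand is not given in the sources used here. Among table entries, 26797 equal 2 and 11683 equal 1, and 68.3% of those from 1 to 100 are even, as when both reads of a pair are counted, so counting precision may be overstated. Libraries followed a stranded dUTP method, per the labels. Symbols, biotypes and coordinates came from GENCODE M39 (GRCm39), which held 78168 of the identifiers, and promoters from RefSeq.

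The test used edgeR 4.0.16 (R 4.3.3): filterByExpr (minimum count 10), TMM scaling, 1 coefficient per group over all 12 libraries, the robust quasi-likelihood F-test (two-sided) and Benjamini-Hochberg adjustment per comparison, with a threshold of 0.05. SE is the absolute log2 change divided by the square root of F. CPM were TMM-scaled. DESeq2 1.42.0 was an alternative. The script was tested on simulated data. Ratios were tested with exact permutations (scipy 1.17.1).

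The members and lists were chosen with earlier results of these data known. All 10 members are named, and up to 4 genes per list by smallest adjusted p, or whose call differs from the rest. The genes closest to the family are the 5 with the highest r. Levels of Irf1, Chil3, C1q, Rfx5, Rfxap, Rfxank and Ifng, and the values of Cd4, Icos, Cd80, Psmb8 and Ptprc, were picked after their values were seen. The values of 1 listed gene are not reported here.

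Replicate numbers are shared between groups but did not pair the libraries: of 18 same-numbered pairs, 8 had deviations correlated above 0.1 (r from -0.36 to 0.30). No pairing entered the main test.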

Additional observations from a re-analysis of the deposited data

How the results depend on the processing

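Groups of 3 libraries, tumour libraries shared between comparisons and tumour HDM replicate 3 limit these results. In HDM tumours against HDM normal lung the direction held for all 10 genes in every alternative run. The count called was 10, except 9 with at least 10 counts in every library (where H2-Oa was not tested) and 8 without the 4 libraries of conflicting prefix, and the median was -2.54 to -1.71 over single libraries left out.

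For VEH tumours against VEH normal lung (2 called), the count was 4 with library size only, 1 without a filter on low counts, 3 with at least 10 counts in every library, 4 by DESeq2's Wald test, 5 with only the groups compared, 3 with the replicate block, 0 with a block for the name prefix, 0 without the 4 libraries, and 0 to 1 with single libraries left out. Those with at least 10 counts, by the Wald test and with the replicate block include H2-Ob, called lower. H2-Oa (-0.10) turned to 0.03 with library size only, 0.10 with the replicate block, 0.42 with the prefix block and 0.24 without the 4 libraries, and ran from -0.44 to 0.21 over single libraries. For HDM against VEH tumours (2 called), the count was 1 with DESeq2 size factors, 1 with library size only, 5 when each library had to hold 10 counts or more, 10 by DESeq2's Wald test, 0 with only the groups compared, 1 with the replicate block, 0 with the prefix block, 0 without the 4 libraries, and 0 to 6 over single libraries. The call of H2-Ab1 was lost in 12 of 15 alternatives. For the interaction (0 called), the count was 9 by the Wald test and 0 to 4 over single libraries, and the median was -3.76 with the prefix block.

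The replicate block changed no other direction of the 10 genes. Over all genes, HDM against VEH tumours gave 21 calls, 1308 by the Wald test, 52 without a filter, 53 when each library had to hold 10 counts or more, 8 with library size only, 1 with the replicate block, 0 with the prefix block, only the groups compared or without the 4 libraries, and 0 to 24 over single libraries. VEH tumours against normal lung gave 8624 calls, and 5603 without the 4 libraries. Normal lung gave 0, and 38 by the Wald test, and the interaction gave 0, 219 by the Wald test and 0 to 6 over single libraries. Library size only moved the median of all genes from -0.08 to 0.10 under HDM and from -0.11 to 0.03 under VEH, and the higher share of calls there from 46.9% to 55.1% and, under HDM, from 44.4% to 51.8%.

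Some small values turned sign. In HDM against VEH tumours, where no value for these genes is drawn on, library size only gave Nfya 0.08 (from -0.02), Carm1 0 (-0.09) and Kat2b 0.01 (-0.08). The prefix block gave Ctsl -0.54 (from 0.42), Nfya 0.06, Kat2b 0.05, Jak1 -0.24 (0.10), Icosl 0.56 (-0.26), Ctsb -0.71 (0.20) and Lgmn -0.62 (0.22). Without the 4 libraries Nfya was 0.19 and Carm1 0.10. Over single libraries Nfya ran from -0.12 to 0.16, Carm1 from -0.25 to 0.06 and Csf1r from -0.28 to 0.07. In HDM tumours against normal lung, Ctss ran from -0.78 to 0.13 and Ifi30 from -0.41 to 0.03. Among ratio differences over single libraries, H2-Oa to H2-DMa ran from -0.81 to 0 (VEH) and from -0.04 to 0.78 (normal lung), H2-Ob to H2-DMa between tumours from -0.28 to 0.17, Cd74 to the classical mean from -0.29 to 0.06 and Ciita from -0.06 to 0.59 (both VEH). The cause of these changes was not tested. The alternatives for gene lists, other named genes and ratios were added after the data were seen.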
